A study of Mus musculus with 2 samples.

Results

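Leukocyte marker genes were compared between the ovaries of mice given ulipristal and of mice given vehicle during an induced ovulation. The 39 genes were chosen by name as markers of white blood cells, and all 39 were represented by at least 1 probe set naming a single gene, among 18193 genes so represented on the array. They were read in 6 classes, namely genes shared by several leukocyte types (8 genes), macrophage genes (14), neutrophil genes (6), lymphocyte genes (6), mast cell genes (2) and genes of MHC class II antigen presentation (3). The mice were wild type animals of the CD-1 background, 24 to 28 d old, and both groups received PMSG (5 IU), which grows follicles, and after a further 48 h hCG (5 IU), which triggers ovulation. At 2 h after hCG the mice were given oil vehicle or ulipristal acetate (labelled Ulipristal/CDB), a ligand that modulates the progesterone receptor, and ovaries were collected at 11 h, a time whose starting point the labels leave unstated. Each treatment was read on 1 Affymetrix mouse genome array hybridised with whole-ovary RNA, and the labels do not say how many animals went into either sample.

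Variation between animals cannot be estimated from these 2 arrays, so no test, SD between samples or p-value is given, and every difference stated is one between the 2 samples. Ratios are ulipristal over vehicle on the log2 scale. Signals are MAS5 probe set values in arbitrary units, raised to a floor of 7.17, the 25th percentile of both arrays. A gene was read on its brightest probe set and counted as measured where the mean log2 signal of both arrays reached the median of all probe sets, which is a signal of 30.8. A difference was counted where it reached 2-fold. The only available yardstick of error was the disagreement between measured probe sets of the same gene, whose log2 ratios had a pooled SD of 0.37 over 4955 genes (0.43 where the mean signal was under 200, and 0.26 at 200 or more). This SD covers the probe sets and not the animals. In whole tissue, fewer cells of a type and less RNA per cell cannot be told apart.

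Ovulation is known to resemble an acute inflammatory event. Macrophages live in the ovarian stroma throughout the cycle, whereas neutrophils enter from the blood around the time of follicle rupture, guided by chemokines and by selectins on the vessel wall. Neutrophils carry antimicrobial proteins in granules and, in the cytosol, large amounts of the calcium-binding proteins S100A8 and S100A9. Macrophages are recognised by the receptor for colony stimulating factor 1, by scavenger receptors and by the complement component C1q.

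Over all 11364 measured genes the median log2 ratio was 0.09, with 3.34% past 2-fold higher on the ulipristal array and 1.56% past 2-fold lower. Of the genes past 2-fold, 68.2% were higher, a share that was 56.3% to 57.3% after other scalings of the arrays. It was 35.8% with 50 added to each signal and 36.5% with the filter at the 75th percentile, where most genes past 2-fold were lower. Ratios depended on signal: among the 5258 measured genes of mean signal under 200 the median was 0.21, 6.47% were past 2-fold higher and 1.64% past 2-fold lower, whereas the median was 0.0091 for the 6106 brighter genes. Of the 6829 genes below the filter, 9.45% were past 2-fold higher and 4.14% past 2-fold lower. The tissue label was borne out by the granulosa gene Inha, with signals of 6933 and 8212, and by the oocyte gene Gdf9, with 309 and 329. Genes listed for oviduct and surface epithelium and for adipose tissue also gave signal, the brightest being Ovgp1 (3641 and 5642) and Fabp4 (1602 and 2148). Spiked-in poly-A controls had a median log2 ratio of -0.58 and 18S ribosomal RNA controls one of -1.27, both brighter on the vehicle array, and their part in the results was not tested.

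Of the 39 leukocyte marker genes, 27 were measured and 12 were not. Among the 27, the 2 genes S100a8 and S100a9 were past 2-fold lower after ulipristal and the 2 genes Ltf and C1qc past 2-fold higher. The remaining 23 lay inside these bounds. Of all measured genes 1.56% were past 2-fold lower and 3.34% higher, and of those under 200 1.64% and 6.47%. The median log2 ratio of the 27 was 0.17, beside 0.09 for all measured genes. Since 23 of the 27 had a mean signal under 200, the nearer comparison is with genes of that brightness, and there the median was 0.17 for the 23 members and 0.21 for all genes. All 14 macrophage genes and all 3 MHC class II genes were measured, but only 3 of 6 neutrophil genes, 1 of 6 lymphocyte genes and 0 of 2 mast cell genes. Macrophage genes thus made up 14 of the 27. Counted instead by the brighter array, 29 members were measured, with 3 past 2-fold lower and 2 past 2-fold higher, beside 1.86% and 4.98% of the 11845 genes so measured.

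**Figure D1:**
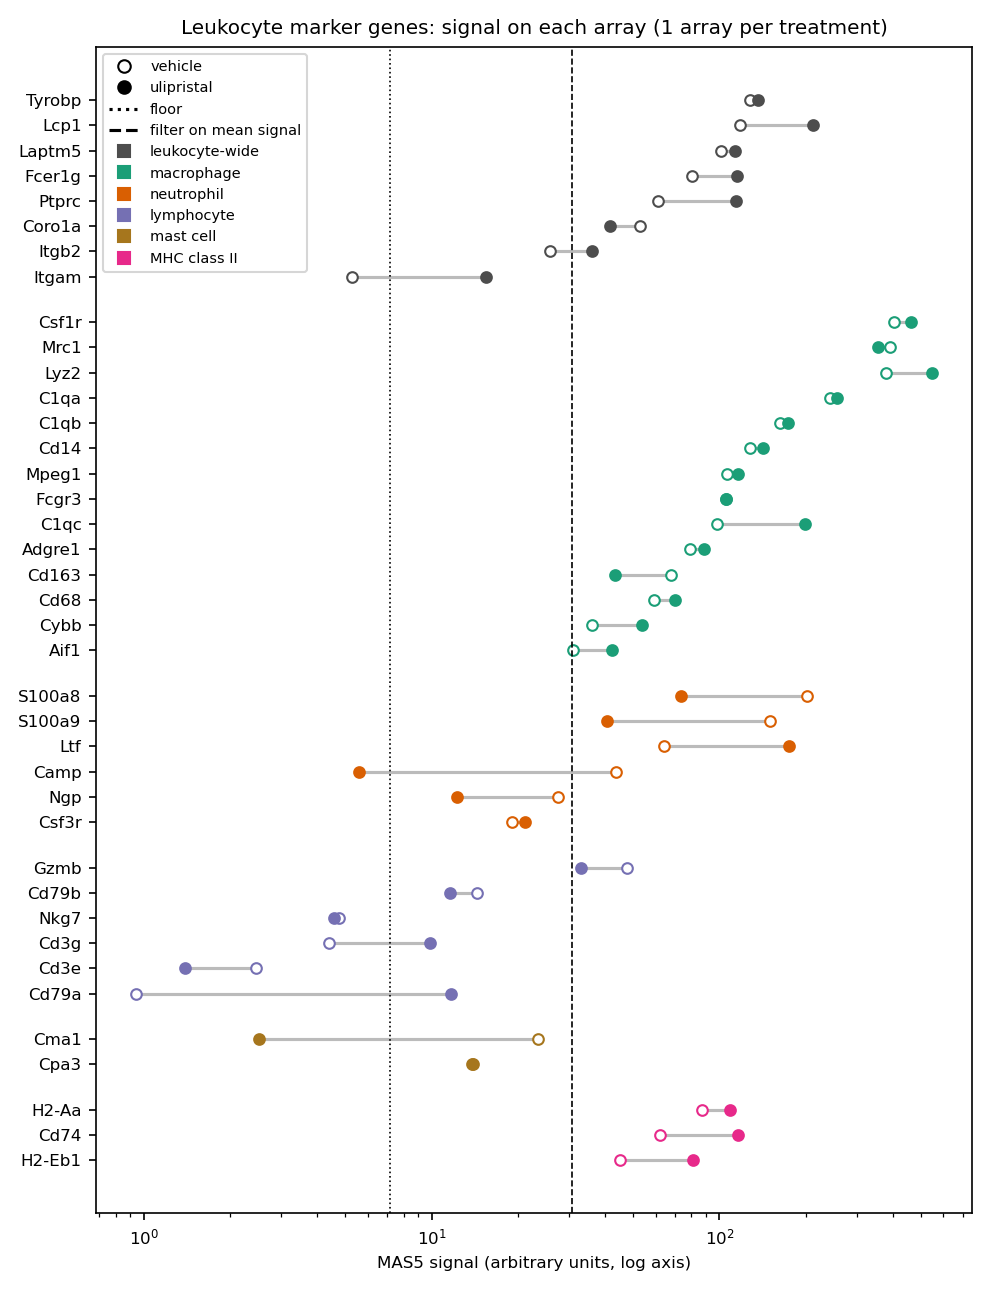
MAS5 signal (log axis, arbitrary units) of the 39 leukocyte marker genes on the vehicle array (open points) and the ulipristal array (filled points), grouped by class, with 1 array per treatment and no error bars. The dotted line is the floor of 7.17 and the dashed line the filter of 30.8, and the widest gaps among the measured genes are those of S100a8, S100a9 and Ltf.

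The neutrophil genes gave the widest differences among the measured members, and they did not all run the same way. S100a8 and S100a9, whose products pair to form calprotectin, are among the most abundant messages of these cells. The signal of S100a8 was 202 after vehicle and 73.5 after ulipristal, 2.75-fold lower. S100a9 had signals of 150 and 40.6, 3.69-fold lower. Both genes were thus low on the ulipristal array, with log2 ratios of -1.46 and -1.88, several times the SD of 0.43 between probe sets of dim genes. Among all 11364 measured genes S100a9 had the 32nd lowest ratio and S100a8 the 69th lowest. Each gene rests on 1 probe set, and that of S100a8 is of a type that can bind more than 1 transcript.

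Camp, Ngp and Csf3r were dim. Camp, which encodes the antimicrobial peptide cathelicidin, read 43.9 with vehicle and 5.58 with ulipristal, which is below the floor, so that it was at least 6.12-fold lower. Ngp, a cathelicidin-related protein of the secondary granules, read 27.5 and 12.3, 2.24-fold lower. Both were below the filter on mean signal and were not counted, and their size depends on the floor. With the floor at the median signal the fold of Camp was at least 1.41, and Ngp was below that floor on both arrays. Csf3r, the receptor for granulocyte colony stimulating factor, read 19.1 and 21.1, also below the filter, and did not share the low values on the ulipristal array. Of the 12 members below the filter, 3 were past 2-fold lower (Camp, Ngp and the mast cell gene Cma1) and 1 past 2-fold higher (Itgam), beside the 4.14% and 9.45% given above for all such genes. Itgam was below the floor with vehicle, so its size too depends on the floor.

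Ltf was higher after ulipristal, opposite to S100a8, S100a9, Camp and Ngp. It encodes lactoferrin, an iron-binding protein of neutrophil secondary granules that secretory epithelia of the reproductive tract also make. Its signal was 64.3 with vehicle and 175 with ulipristal, 2.72-fold higher, the 94th highest ratio of all measured genes. Epithelial markers were higher on the same array. All 10 listed markers of oviduct and surface epithelium were measured, with a median log2 ratio of 1.17. Of the 10, 6 were past 2-fold higher and 0 past 2-fold lower, beside 6.47% and 1.64% of all measured genes under 200. With 50 added to each signal 1 of the 10 was past 2-fold higher, with a median of 0.69. With the filter at the 75th percentile it was 1 of 5. The summed signal of the list was 4691 with vehicle and 7481 with ulipristal, mostly from Ovgp1 (3641 and 5642). In the main setting the count was 6. These 6 were Foxj1 (log2 ratio 1.98), Ccdc39 (1.41), Tmem212 (1.40), Epcam (1.32), Wfdc2 (1.18) and Tppp3 (1.16). Foxj1 (19.1 and 75.1) and Ccdc39 (27.4 and 72.9) read below 30.8 with vehicle, so they reached the filter only through the ulipristal array. The part of the epithelial markers in the Ltf value was not tested. Lcn2, lipocalin 2, another product of both granules and epithelia, read 136 and 209.

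Because S100a8 and S100a9 were low after ulipristal and Ltf was high, the 250 bases before the start site of each are shown, from RefSeq on GRCm38.p6. Capitals mark matches to TTNNGNAA on either strand, a loose form of the site of the C/EBP factors that drive granule genes in developing neutrophils. S100a8 lies on the plus strand (chr3:90668821-90669070), S100a9 on the minus strand (chr3:90695722-90695971) of the same chromosome, and Ltf on the plus strand (chr9:111019042-111019291).
S100a8: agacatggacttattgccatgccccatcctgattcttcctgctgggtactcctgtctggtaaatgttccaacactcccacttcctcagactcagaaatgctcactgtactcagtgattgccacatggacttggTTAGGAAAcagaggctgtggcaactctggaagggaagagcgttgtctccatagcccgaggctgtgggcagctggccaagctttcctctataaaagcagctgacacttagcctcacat
S100a9: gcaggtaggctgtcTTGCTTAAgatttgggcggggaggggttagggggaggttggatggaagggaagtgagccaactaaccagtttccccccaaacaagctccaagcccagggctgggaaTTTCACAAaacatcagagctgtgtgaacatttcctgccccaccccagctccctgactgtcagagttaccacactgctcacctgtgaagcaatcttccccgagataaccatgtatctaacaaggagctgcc
Ltf: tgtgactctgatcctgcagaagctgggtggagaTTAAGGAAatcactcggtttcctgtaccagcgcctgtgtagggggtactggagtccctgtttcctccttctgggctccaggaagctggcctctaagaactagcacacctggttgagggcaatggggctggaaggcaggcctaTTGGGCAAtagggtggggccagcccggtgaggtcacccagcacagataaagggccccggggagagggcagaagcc

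The pattern was matched 1 time before S100a8, 2 times before S100a9 and 2 times before Ltf. Camp had 0 matches and Ngp 3. It occurs in 36.8% of 32851 promoters of the same length, and GAGGAA, a core of the PU.1 site searched on both strands, in 23.3%. GAGGAA was found 2 times before S100a8, 1 time before Ltf and 0 times before S100a9, Camp and Ngp. These letters therefore did not divide the genes that were low after ulipristal from Ltf, and a match is only a description of the sequence.

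Further neutrophil genes added little. Of 15 listed, 12 had a single-gene probe set and 2 were measured, Lcn2 and Wfdc21 (30.9 and 34.3), with 0 past 2-fold. Among the dim remainder, Mpo, the myeloperoxidase of primary granules, read 17.4 with vehicle and 2.41 with ulipristal. Trem1, an activating receptor of myeloid cells, read 23.1 and 2.59, and Chil3, a chitinase-like protein, 18.2 and 3.01. These 3 genes were named after their values were seen. All 3 ulipristal signals lay below the floor, but so did Elane, the neutrophil elastase, on both arrays (5.26 and 3.97), and the chemokine receptor Cxcr2 read 2.06 and 7.80. Mmp8 read 15.8 and 13.9 and Mmp9 21.2 and 24.2. Of the 10 listed genes below the filter, 3 (Mpo, Trem1 and Chil3) were past 2-fold lower and 0 past 2-fold higher. For all genes below the filter these shares were 4.14% and 9.45%. With no filter 4 of the 12 were above 0 and 7 below, with a median log2 ratio of -0.13. Markers of red cells and platelets above the filter differed little between the arrays. Of 4 red cell genes 2 were measured, Alas2 of haem synthesis reading 129 and 141 and the membrane protein Slc4a1 32.5 and 32.8, and the summed signal of the list was 192 and 206. Of 6 platelet genes 3 were measured, the chemokine Pf4 reading 143 and 157, the integrin chain Itga2b 66.2 and 69.7 and the receptor subunit Gp1bb 29.0 and 34.4, and the summed signal was 303 and 298. Gp1bb read below 30.8 with vehicle, so it reached the filter only through the ulipristal array. Platelet genes below the filter included Ppbp, a chemokine precursor, with 27.8 and 15.3, and Gp9, a subunit of the von Willebrand factor receptor, with 14.0 and 2.65, the latter below the floor. Both were lower on the ulipristal array, as were the remaining platelet gene Treml1 (22.4 and 19.1) and Mpo, Trem1 and Chil3. With no filter 3 of the 6 platelet genes were above 0 and 3 below, with a median log2 ratio of -0.08.

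Macrophage genes were close to each other on both arrays. Of the 14, all measured, 1 was past 2-fold higher and 0 past 2-fold lower, beside 6.47% and 1.64% of all measured genes under 200. The log2 ratios of 9 lay within the probe set SD of 0.37. Over the 14 the median log2 ratio was 0.16, with 12 above 0 and 2 below. Of all measured genes 60.0% were above 0, and of those under 200 70.2%, with a median of 0.21. After lowess centring 8 of the 14 macrophage genes were above 0 and 6 below with a median of 0.03. After median centring or quantile normalization 10 were above and 4 below. Csf1r, the receptor that macrophages need for survival, read 404 with vehicle and 463 with ulipristal. The ratios of its 3 probe sets ran from -0.17 to 0.34. Adgre1, the F4/80 antigen, read 79.1 and 88.5. Cd68, a lysosomal glycoprotein, read 59.3 and 70.0. On their brightest probe sets these lineage markers thus differed by no more than 1.18-fold between the samples.

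Surface receptors of macrophages were near each other as well, with one exception. Cd14, the co-receptor for bacterial lipopolysaccharide, read 128 and 142. Fcgr3, a low-affinity receptor for immunoglobulin G, read 105 and 106. Mrc1, the mannose receptor of tissue-resident macrophages, read 391 and 357. Cd163, the scavenger receptor for haemoglobin and haptoglobin, was the lowest of the class, with signals of 68.1 and 43.4, a log2 ratio of -0.65 on 1 probe set. That is 1.57-fold lower and did not reach 2-fold.

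The 3 chains of C1q, which assemble into a single complex, differed in ratio. C1qa read 242 with vehicle and 256 with ulipristal. C1qb read 162 and 173, with ratios from -0.22 to 0.09 over its 3 probe sets. C1qc read 97.7 and 198, 2.03-fold higher on 1 probe set, the 356th highest ratio of all measured genes. C1qc was the macrophage gene with the highest ratio, and it was under 2-fold after median centring, quantile normalization and lowess centring (log2 ratios of 0.93, 0.92 and 0.90) and with 50 added to each signal (0.75). Genes of phagocyte function lay between. Lyz2, lysozyme, read 380 and 549, 1.45-fold higher. Cybb, the catalytic subunit of the phagocyte NADPH oxidase, read 36.2 and 53.8. Aif1, the cytoskeletal protein IBA1, read 30.9 and 42.3, and Mpeg1, the pore-forming perforin-2, read 107 and 116. All 4 were above 0, as were 60.0% of all measured genes and 70.2% of those under 200, and 0 of the 4 reached 2-fold.

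A further list of 17 macrophage genes gave a like picture, with 8 measured, 0 past 2-fold in either direction and a median log2 ratio of 0.13. Of these 8, 7 were above 0, beside 70.2% of all measured genes under 200, but after median centring 4 were above and 4 below. Ctss, the protease cathepsin S, read 320 and 335. Fcgr2b, the inhibitory receptor for immunoglobulin G, read 137 and 78.2 on its brightest probe set, while its 4 measured probe sets ran from -0.80 to 0.81 and so gave no direction. Ms4a7, a membrane protein of resident macrophages, had the highest ratio of the remaining members, with signals of 65.7 and 98.1. Fcgr1, the high-affinity receptor for immunoglobulin G, read 38.5 and 49.0.

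**Figure D2:**
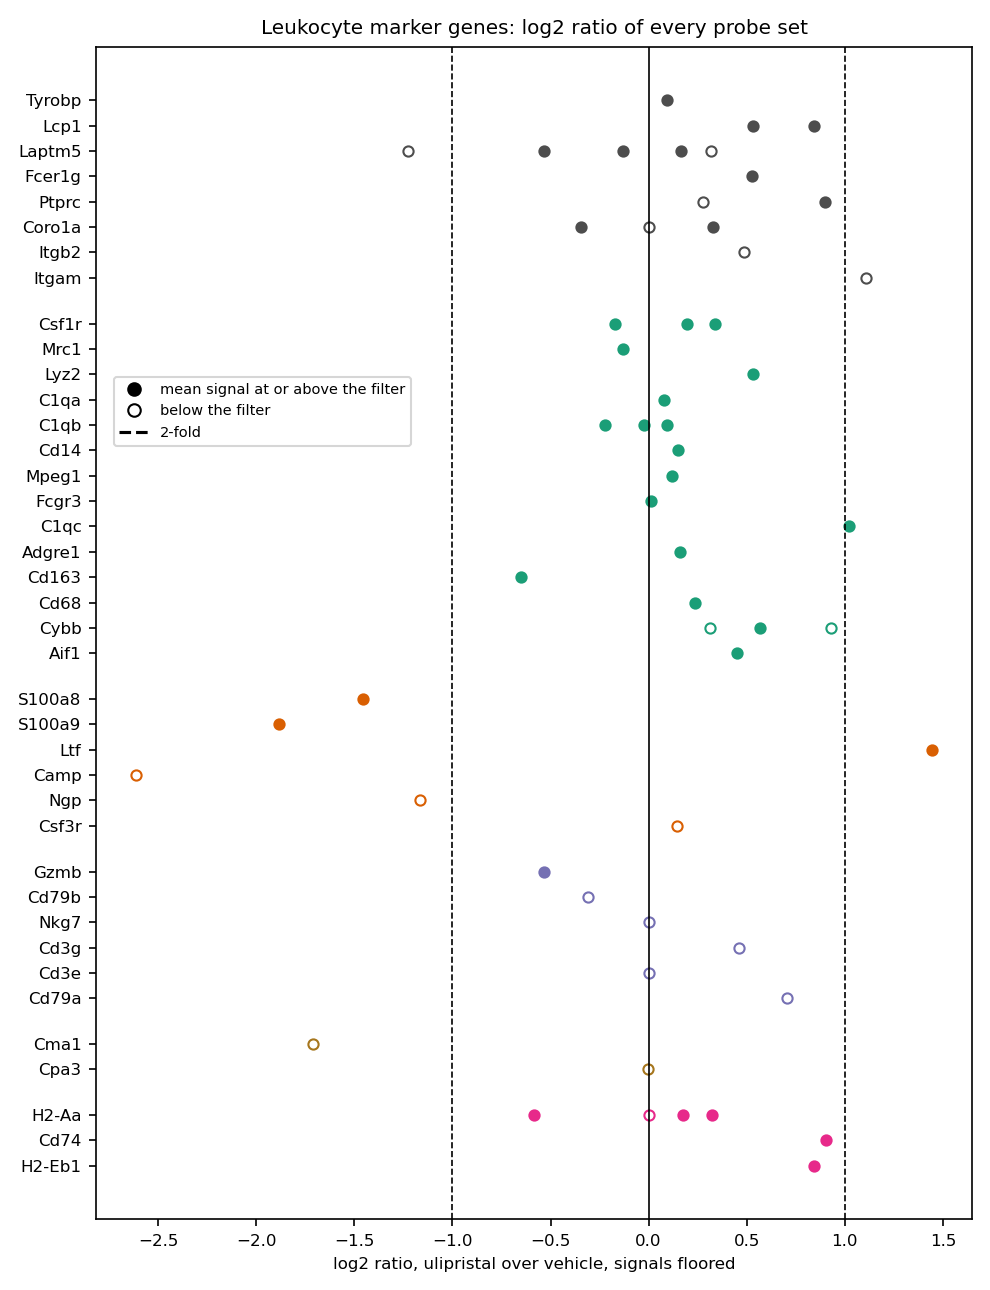
Log2 ratio (ulipristal over vehicle, floored signals) of all 56 probe sets of the 39 genes, 1 point per probe set, with 37 filled points at or above the filter on mean signal. Dashed lines mark 2-fold, and measured probe sets of Laptm5, Coro1a, Csf1r, C1qb and H2-Aa lie on both sides of 0.

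Of the 8 genes shared by several leukocyte types, 6 were measured, 0 reached 2-fold in either direction, and the median log2 ratio was 0.35. On the brightest probe sets 5 were above 0 and 1 below, beside 70.2% above 0 among all measured genes under 200. After lowess centring or quantile normalization, or taking the median over probe sets, 4 were above and 2 below, with medians of 0.22, 0.24 and 0.31. Ptprc, the CD45 phosphatase found on all white blood cells, read 61.1 with vehicle and 114 with ulipristal, 1.87-fold higher on its 1 measured probe set. Lcp1, the actin-bundling protein L-plastin, read 118 and 211, 1.79-fold higher, and its second probe set gave a log2 ratio of 0.53. These were the widest differences among the measured genes of the class, and both exceeded the SD of 0.43 between probe sets of dim genes.

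The signalling adaptors of myeloid and natural killer cells were Fcer1g, the common gamma chain of Fc receptors, with 80.1 and 116, and Tyrobp, or DAP12, with 128 and 137. Laptm5, a lysosomal membrane protein of leukocytes, read 101 and 114, with ratios from -0.54 to 0.17 over 3 measured probe sets. Coro1a, an actin regulator, read 53.1 and 41.8, with ratios of -0.34 and 0.33 on 2 probe sets. Neither gene therefore had a direction that its probe sets shared. The beta-2 integrin chain Itgb2 read 25.8 and 36.2, and its alpha-M partner Itgam, which is CD11b of neutrophils and macrophages, read 5.30 and 15.5. Both integrin genes fell short of the filter, and neither was low on the ulipristal array.

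MHC class II genes had the highest median of the classes, 0.84 over 3 measured genes, with 0 past 2-fold. Cd74, the invariant chain that guides class II molecules to the endosome, read 62.3 with vehicle and 116 with ulipristal, 1.87-fold higher. H2-Eb1, a class II beta chain, read 45.1 and 80.9, 1.79-fold higher. H2-Aa, a class II alpha chain, read 87.3 and 109, but its 3 measured probe sets ran from -0.58 to 0.32. The shared direction of Cd74 and H2-Eb1 therefore did not extend to all probe sets of H2-Aa. The median was 0.46 with 50 added to each signal. H2-Ab1, another beta chain, from the list of dendritic cell and other class II genes, read 50.9 and 69.1, and H2-DMa, which helps load peptides, read 42.8 and 38.1. Zbtb46, a transcription factor of dendritic cells, read 130 and 181, but its 3 measured probe sets ran from -0.45 to 0.48. Cd83, a marker of dendritic cell maturation, read 100.1 and 85.3. In that list 4 of 10 genes on the array were measured and 0 passed 2-fold, and the median of 0.14 was -0.19 with the median over probe sets and -0.17 without s and x probe sets.

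Lymphocyte and mast cell genes were mostly too dim to compare. Gzmb, the protease granzyme B of killer cells, was the measured lymphocyte gene, with 47.6 and 32.9, 1.44-fold lower. The T cell receptor chains Cd3e (2.45 and 1.39) and Cd3g (4.42 and 9.87), the B cell receptor chains Cd79a (0.94 and 11.7) and Cd79b (14.4 and 11.6) and the killer cell gene Nkg7 (4.79 and 4.58) were all below the filter. Cd3e and Nkg7 were below the floor on both arrays and have no order. Of 16 further lymphocyte genes on the array, 0 were measured. The mast cell proteases were Cpa3, with 13.9 and 13.8, and Cma1, with 23.4 and 2.52, the latter below the floor and so at least 3.27-fold lower, in the dim range where the floor sets the size. Of 12 further mast cell, basophil and eosinophil genes 2 were measured and 0 passed 2-fold, with a median log2 ratio of -0.34. These were Hdc, the enzyme that makes histamine, with 1066 and 715, and the transcription factor Gata2, with 160 and 149. The 2 probe sets of Hdc had ratios of -0.58 and -0.01, and those of Gata2 -0.10 and 0.34. With the median over probe sets the list median was -0.09, with 1 gene above 0 and 1 below. The other 10 genes of the list were below the filter.

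**Figure D3:**
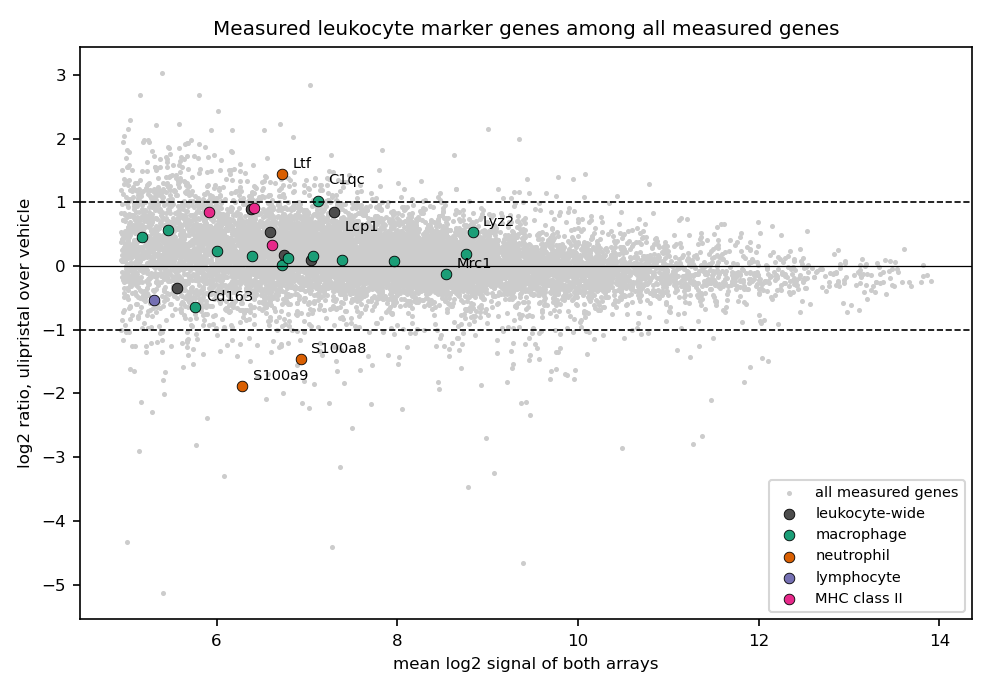
Log2 ratio (ulipristal over vehicle) against the mean log2 signal of both arrays, with all 11364 measured genes in grey and the 27 measured leukocyte marker genes coloured by class; dashed lines mark 2-fold. S100a8 and S100a9 lie below the lower line, Ltf and C1qc at or above the upper one, and the other 23 between the lines.

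Genes that bring leukocytes into tissue were listed for comparison with the cells' own markers. Of 29 listed, 27 were on the array and 11 measured, 0 past 2-fold higher and 2 past 2-fold lower, beside 3.34% and 1.56% of all measured genes, with 7 below 0, 4 above and a median log2 ratio of -0.36. Selp, the P-selectin on which neutrophils roll along the vessel wall, read 93.2 with vehicle and 35.9 with ulipristal, 2.60-fold lower on its measured probe set. Cxcl1, a chemokine that attracts neutrophils, read 149 and 65.6, 2.27-fold lower on its brightest probe set, while its 3 probe sets ran from -1.18 to 0.04. The latter range takes in 0, so Cxcl1 had no direction shared by its probe sets. Il33, an alarm cytokine, read 168 and 92.7. Icam1, which holds leukocytes firmly to endothelium, read 274 and 192, whereas Ccl2, a chemokine for monocytes, read 68.6 and 100.2 and Csf1, the ligand of Csf1r, read 131 and 165. With 50 added to each signal 0 of the 11 were past 2-fold lower. The median depended on the filter and was -0.08 under each of the 3 other filters. With the filter on the brighter array 13 genes were measured, 6 above 0 and 7 below, 1 past 2-fold higher and 2 lower. With no filter 2 of 27 were past 2-fold higher and 3 lower. At the 75th percentile 5 were measured, with 0 past 2-fold in either direction.

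**Figure D4:**
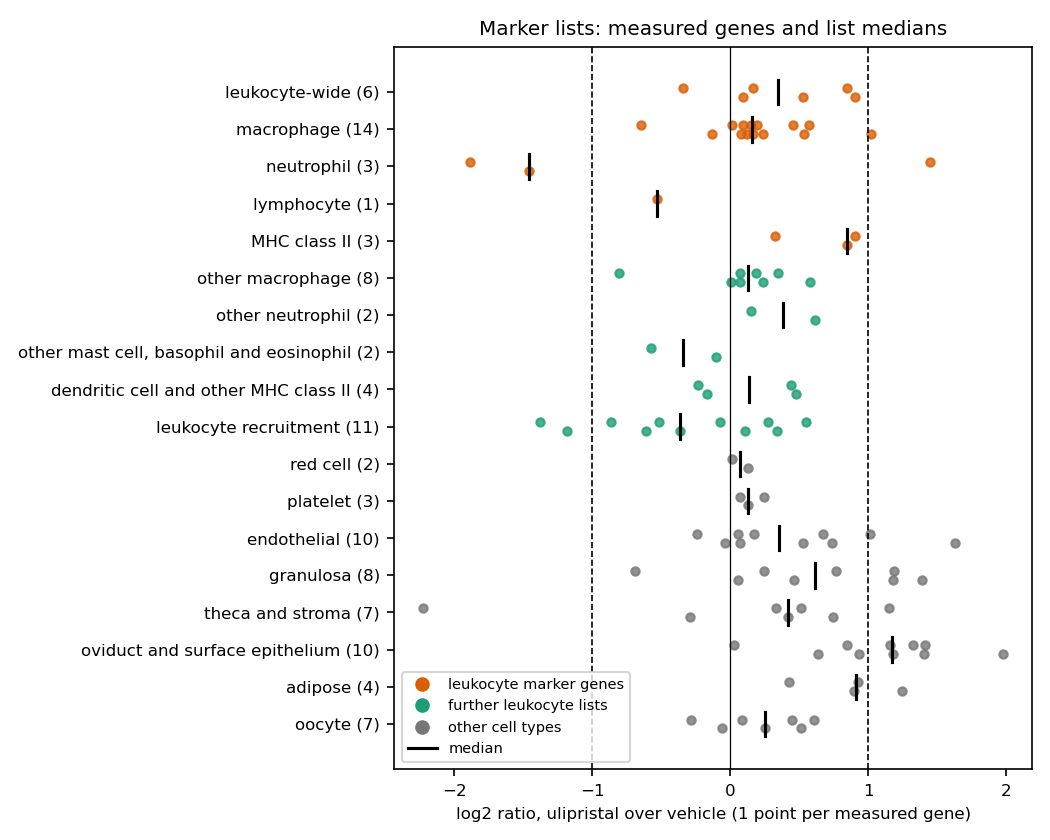
Log2 ratio (ulipristal over vehicle) of each measured gene in the leukocyte marker classes, in further leukocyte lists and in lists for other cell types, with the number measured in brackets and a bar at each list's median. Of the neutrophil genes 2 of 3 lie below -1 and 1 above 1, while macrophage genes cluster near 0 and the oviduct and surface epithelium list has its median at 1.17.

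Markers of other cell types on the same arrays set the scale for these differences. Endothelial genes had 2 of 10 measured members past 2-fold higher and 0 past 2-fold lower, beside 3.34% and 1.56% of all measured genes. Their median log2 ratio was 0.35, with summed signals of 2167 and 2630. After each of the 3 other scalings 1 was past 2-fold higher. With 50 added to each signal, or with the filter at the 75th percentile, 0 were. The 2 past 2-fold in the main setting were Tie1 (log2 ratio 1.63) and Pecam1 (1.01), both of the vessel wall. Tie1 read 24.8 with vehicle and 76.8 with ulipristal, so it reached the filter of 30.8 only through the ulipristal array. Adipose genes had a median of 0.91 over 4 measured members and summed signals of 1936 and 2782. Stroma and theca genes had a median of 0.42 over 7, granulosa genes 0.61 over 8 and oocyte genes 0.25 over 7. Members of these lists past 2-fold higher were Cidec (1.24) of adipose tissue, Inhba (1.39), Esr2 (1.19) and Fshr (1.18) of granulosa cells and Tcf21 (1.15) of stroma. They were 1 of 4 adipose, 3 of 8 granulosa and 1 of 7 stroma and theca genes. Of all measured genes 3.34% were past 2-fold higher, and 6.47% of those under 200. With 50 added to each signal the 3 lists had 0, 1 and 1 past 2-fold higher. With the filter at the 75th percentile these were 0 of 2, 1 of 5 and 1 of 6. Cidec read 28.7 with vehicle and 67.9 with ulipristal, and it too reached the filter only through the ulipristal array. Hhip, an inhibitor of hedgehog signalling, was 4.67-fold lower, 1 of 7 stroma and theca genes, beside 1.56% of all measured genes past 2-fold lower. The oocyte list had 0 past 2-fold, with its highest ratios in Nobox (0.61), Zp3 (0.51) and Zp1 (0.45). The macrophage median of 0.16 thus lay below those of the epithelial, adipose, granulosa, stromal, endothelial and oocyte lists. It lay above those of the red cell (0.07 over 2 genes) and platelet (0.13 over 3) lists. With the filter at the 75th percentile it was 0.09 over 5 genes, above the endothelial median of 0.07 over 7. In the main setting the neutrophil median of -1.46 lay below all of these. That median rests on 3 genes and was -0.22 over 2 genes without s and x probe sets, and the further neutrophil list had a median of 0.38 over 2 genes, above the endothelial and oocyte medians. The part of tissue composition in the leukocyte values was not tested.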

How the data were processed

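Whole-ovary RNA was read on 2 arrays, 1 per treatment, grouped by the labels' treatment field. Values were used as deposited, in linear intensity units per probe set. MAS5 is named in the submitters' processing notes, as is version 1 of Affymetrix Expression Console. After trimming 2% at each end, both arrays had a mean of 150.001, so that a difference common to most genes cannot be seen. No genome build of the probe sets is used.

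Of 45101 probe sets, 34945 named 1 gene, 932 several, 9160 none and 64 were controls, in a platform annotation that can be old. All 39 members were found by gene identifier in the RefSeq table, and 0 symbols differed. Promoters were found for 31 members. No test was possible, and for arrays their number limits the precision. The members, classes and lists were chosen with earlier results of these data known. All members are named. In other lists the rule was to name measured members past 2-fold or, where there were none, up to 3 with the widest ratios. Further genes of those lists were picked with their values known. Simulated arrays with known differences served to check the steps. Alternatives were 3 scalings, 2 floors, 3 filters, a pseudocount, 2 choices of probe set and 2 fold thresholds. Values were computed in Python 3.11.15 with pandas 2.3.3 and numpy 2.4.6. Lowess came from statsmodels 0.14.6 and plots from matplotlib 3.10.9.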

Additional observations from a re-analysis of the deposited data

How the results depend on the processing

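S100a8 and S100a9 stayed at least 2-fold lower under each alternative that measured them, 9 and 10 settings, and Ltf at least 2-fold higher under 9 of 10, reaching a log2 ratio of 0.98 with 50 added to each signal. C1qc passed 2-fold under 6 of 10. The number of members at least 2-fold higher was 1 after median centring, quantile normalization and lowess centring, 0 with the pseudocount of 50 and 6 at 1.5-fold. The number at least 2-fold lower was 5 with no filter and 1 without s and x probe sets, which leave out S100a8. At 3-fold 1 member was lower and 0 were higher. With the filter at the 75th percentile 6 members were measured, with 0 lower and 0 higher, and the median of the genes shared by leukocyte types was then 0.84, from Lcp1 alone. With the filter on the brighter array 29 members were measured and Camp joined the lower ones. The neutrophil median was -1.03 with the pseudocount and -0.22 over 2 genes without s and x probe sets. The MHC class II median was 0.46 with the pseudocount, and the lymphocyte median 0 with no filter, with 2 of 6 genes above 0, 2 below and 2 under the floor on both arrays. The other 73 values for counts and medians kept within 1.5 times or 1 probe set SD of the main ones. No paired analysis was possible because each treatment had 1 array. Signals near the floor limit what can be said of neutrophil, lymphocyte and mast cell genes.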
